A study of Mus musculus with 6 samples.

Results

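The genes described here encode the enzymes, carriers and peroxisome proteins that break down fatty acids in mitochondria and peroxisomes. They were taken from a list of 39 genes, of which 38 had a probe set named for them alone among 18193 genes measured. Acsl1 was not analysed here. A gene is represented by its brightest probe set, judged by the mean of all 6 arrays. By role, 16 of the genes encode enzymes or carriers of mitochondrial oxidation, 8 encode peroxisomal enzymes and 4 (Crat, Eci2, Ech1 and Amacr) encode enzymes found in both organelles. A further 5 encode a peroxisomal transporter or peroxisome assembly proteins, 4 encode long-chain acyl-CoA synthetases, and Acot1 encodes a cytosolic acyl-CoA thioesterase.

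RNA from islets of Langerhans of 6 mice was measured on 1-colour Affymetrix arrays, and each array came from a different mouse aged 8 weeks on a mixed SV 129/C57BL/6 background. The 3 control mice carried floxed Ppard alleles (PPARbetafl/fl). Their 3 littermates labelled knockout carried the same floxed alleles and the Pdx1Cre transgene, so the floxed alleles are shared by both groups. The Pdx1 promoter drives Cre throughout the developing pancreas, in exocrine and duct cells as well as in beta cells, and mice with Pdx1Cre and intact Ppard alleles were not analysed here. Loss of Ppard and presence of Cre thus cannot be told apart in any difference below.

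In cells that burn fat, a fatty acid is first joined to coenzyme A by an acyl-CoA synthetase. Long chains then cross the inner mitochondrial membrane as carnitine esters and are shortened step by step by a dehydrogenase, a hydratase, a second dehydrogenase and a thiolase. Peroxisomes run a similar spiral with their own enzymes on very long, branched and dicarboxylic chains and pass the shortened products on to mitochondria. Many of these genes are known targets of PPAR receptors, and PPARβ (also written PPARδ), the product of Ppard, is a fatty acid-activated receptor of that family. The comparison asks which of these transcripts differ between the arrays labelled knockout and the controls.

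The deposited values are log2 expression values. Over all probe sets the median per array lay between 5.39 and 5.49, and arrays correlated at r between 0.978 and 0.993. Ppard itself had a higher mean in the arrays labelled knockout than in controls. It stood at 7.75, 7.56 and 7.12 in controls 1 to 3 and at 8.01, 8.20 and 7.70 in knockouts 1 to 3 (difference 0.49 ± 0.20, SE, limma adjusted p = 0.377). The labels name no deleted exon, so this probe set does not check the deletion. Beta cell markers were bright in all arrays, with a mean of 8 measured markers of 11.72 to 12.04 in controls and a lower 11.37 to 11.72 in the arrays labelled knockout (6 of 8 lower, of which Slc30a8 fell), and Ins2 and Iapp were near the top of the range. The labels call the cells pancreatic beta-cells, but Gcg, the glucagon gene of alpha cells, was equally near the top, so RNA of whole islets was measured. Exocrine RNA differed between arrays. Averaged over the 30 acinar markers measured of 33 listed, the log2 level of controls 1 to 3 was 6.46, 10.56 and 10.71. In knockouts 1 to 3 the same average was 8.13, 5.47 and 5.58 (two-sided exact permutation p = 0.2; the smallest p this design allows is 0.1). In bulk RNA, fewer cells of a type and less RNA per cell cannot be told apart.

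Of the 38 genes, 1 rose (Ehhadh), 0 fell and 37 did not pass the test (limma, adjusted p under 0.05 over all probe sets). Without adjustment 6 of the 38 (15.8%) had a p under 0.05, all with higher means, against 14.0% of all genes (8.37% higher and 5.58% lower). Over all 18193 genes 1.1% were called, 0.852% higher and 0.247% lower, and over all probe sets 0.897%. The share of 1 in 38 rests on a single gene. The median difference (knockout minus control, log2) over the 38 was 0.050, against 0.0020 over all genes, and 24 had higher means, while 50.4% of all genes did. The groups did not overlap in 9 of the 38, 8 of them higher, and in 21.2% of all genes (12.1% higher and 9.06% lower). For 28 of the 38 the 95% interval of the difference lay within 1.5-fold either way, as it did for 64.8% of all genes. These intervals come from the limma fit and are not adjusted for the number of genes.

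**Figure D1:**
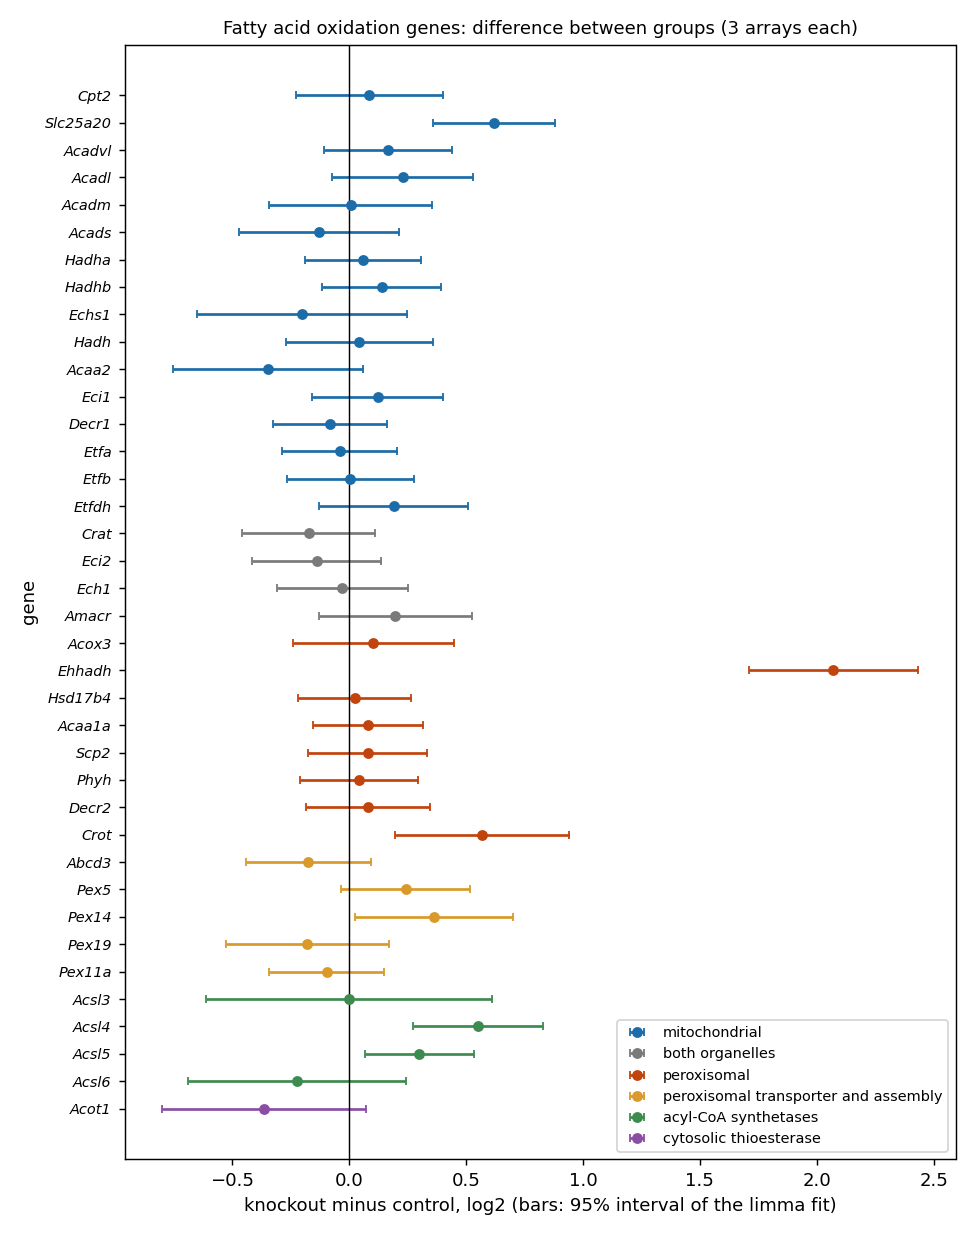
Difference between the arrays labelled knockout and the controls for each of the 38 genes, on the log2 scale, with the 95% interval of the limma fit (3 arrays per group) and colours for the classes. Ehhadh stands apart at 2.07, and the other 37 genes lie between -0.36 and 0.62.

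Ehhadh was the one gene of the set that rose. It encodes the peroxisomal bifunctional enzyme, which carries out the hydratase and second dehydrogenase steps of the peroxisomal spiral and is known for acting on dicarboxylic acids. Its log2 values were 5.85, 5.6 and 5.57 in controls 1 to 3 and 7.60, 8.01 and 7.62 in knockouts 1 to 3. The groups were far apart: the lowest knockout array was well above the highest control, and knockout 2 was the highest. The means of 5.67 ± 0.15 and 7.74 ± 0.23 (SD, n = 3 each) differed by 2.07 ± 0.15 (SE), or 4.20-fold (limma adjusted p = 0.00289, 95% interval 1.71 to 2.43). Ranked among all probe sets, the control mean was at percentile 52.7 and the mean of the arrays labelled knockout at 74.9. Without detection calls, whether the control level lay above background cannot be told. A single probe set measured the gene, so there is no second one to set beside it.

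The rise of Ehhadh was 1.94 to 2.16 when any 1 of the 6 arrays was left out, with adjusted p between 0.00536 and 0.0220. When the arrays' mean acinar level entered the fit as a covariate the difference was 1.87 ± 0.18 (SE, limma adjusted p = 0.0291). Against control 1 alone, the control with the least acinar RNA, it was 1.90 ± 0.22 and the call ended (limma adjusted p = 0.0826). That fit takes the spread of the lone control from the other group. The means of 4 marker lists did not overlap between the groups, that of the beta cell list (given above) only narrowly. The mean of 8 immune cell markers was 6.57 to 6.66 in controls and 7.13 to 7.35 in the arrays labelled knockout (8 of 8 higher, of which 1 rose). For 4 alpha cell markers it was 9.64 to 9.86 against 9.12 to 9.22 (4 of 4 lower, of which 0 fell). For 7 delta, PP and epsilon cell markers it was 10.42 to 10.63 against 9.87 to 9.93 (7 of 7 lower, of which 2 fell). Of 5 duct markers, whose mean overlapped between the groups, 4 had lower means and 1 rose. The part of these lists in the Ehhadh difference was not tested.

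The bases just before the start of Ehhadh are shown because it is the gene that rose. They lie at chr16:21787835-21788084 on the minus strand of GRCm38.p6 (sequences are from RefSeq, printed 5′ to 3′ on the gene's strand) and are 60.4% G and C. Capitals would mark AGGTCA, the unit to which PPAR receptors and their RXR partners bind, and the stretch holds none on either strand.
Ehhadh: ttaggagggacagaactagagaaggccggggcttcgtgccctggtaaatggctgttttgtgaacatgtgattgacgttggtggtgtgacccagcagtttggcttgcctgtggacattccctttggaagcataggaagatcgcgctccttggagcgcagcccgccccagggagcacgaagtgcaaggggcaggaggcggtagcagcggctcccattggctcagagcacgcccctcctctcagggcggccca
That these letters are missing says nothing of sites farther away.

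The other 7 peroxisomal enzymes did not pass, and their differences were small apart from that of Crot. Crot encodes carnitine octanoyltransferase, which makes carnitine esters of the medium-length chains that leave the peroxisome. It stood at 8.48, 7.95 and 8.13 in controls 1 to 3 and at 8.74, 8.65 and 8.88 in knockouts 1 to 3. The groups did not overlap, and control 1 came close to knockout 2. The difference was 0.57 ± 0.16 (SE, limma adjusted p = 0.200, 95% interval 0.20 to 0.94), and it was 0.28 ± 0.16 against control 1 alone. A dim second probe set of Crot differed by 0.0017.

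The remaining peroxisomal enzymes cover the rest of the spiral and the side paths. Acox3, an acyl-CoA oxidase of the first step, differed by 0.10 ± 0.15 (SE), and by -0.099 with the acinar covariate. Hsd17b4, the D-bifunctional enzyme that does the same steps as Ehhadh with the opposite stereochemistry, differed by 0.023 ± 0.10, with a 95% interval of -0.22 to 0.26. Its values were 9.52, 9.37 and 9.38 in controls and 9.49, 9.41 and 9.42 in the arrays labelled knockout, so the groups overlapped on this probe set. On a dimmer probe set of Hsd17b4 they did not overlap. It read 8.23 to 8.41 in controls and 8.42 to 8.52 in the arrays labelled knockout (difference 0.13 ± 0.11, SE, limma adjusted p = 0.657). The thiolase gene Acaa1a did not overlap between groups, at 9.75 to 9.86 in controls and 9.87 to 9.95 in the arrays labelled knockout, with a difference of 0.082 ± 0.10. Its probe set is of a type that can bind related transcripts, and Acaa1b is a close relative, so its signal may be included. Scp2, which holds a thiolase and a sterol carrier domain, differed by 0.078 ± 0.11, Decr2, which reduces double bonds, by 0.079 ± 0.11, and Phyh, which starts the breakdown of phytanic acid, by 0.041 ± 0.11.

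**Figure D2:**
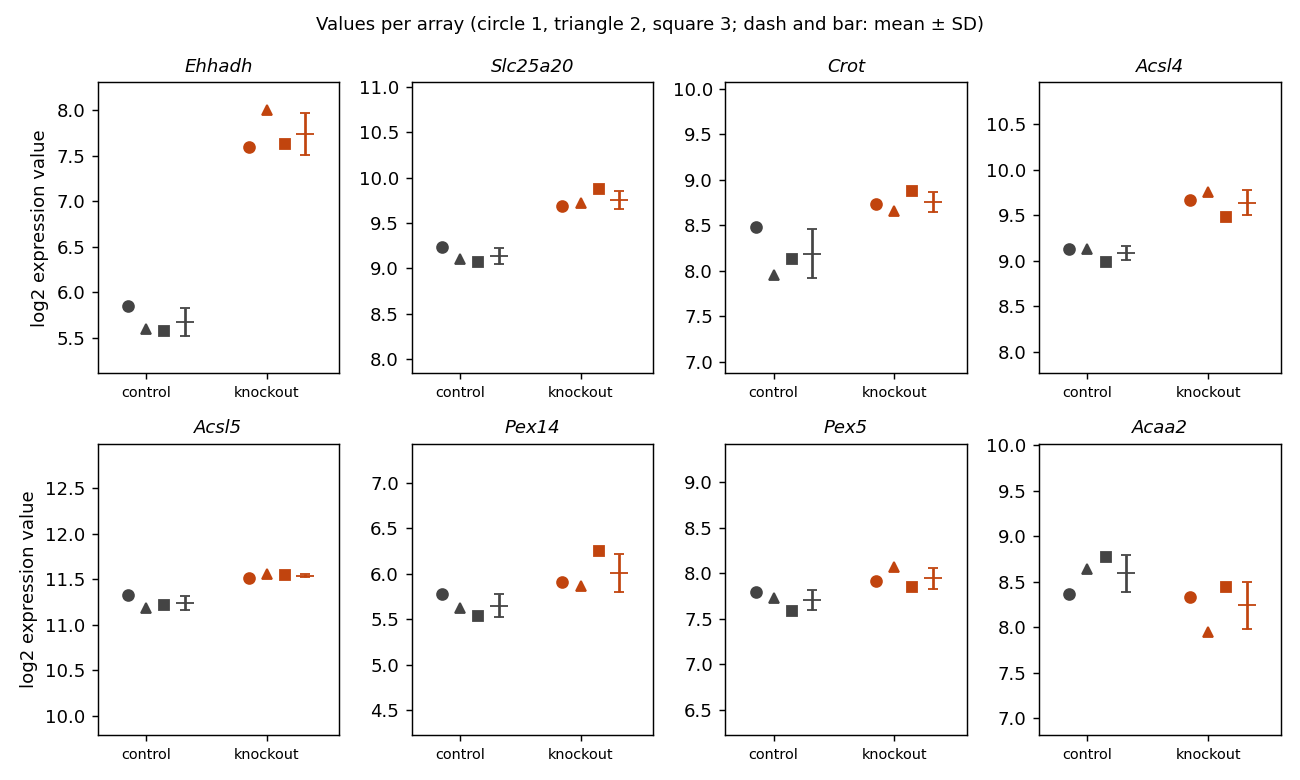
log2 expression value per array for 8 of the genes, controls in dark grey and arrays labelled knockout in orange, with the mean ± SD (n = 3) to the right of each group; every panel spans the same number of log2 units. Ehhadh shifts by 2.07, Slc25a20, Crot and Acsl4 by 0.55 to 0.62, and the groups overlap for Acaa2.

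In mitochondria 0 of 16 genes rose or fell, and 1 of the 16 (6.25%) had an unadjusted p under 0.05 (limma), against 14.0% of all genes. Their median difference was 0.050, 11 had higher means, and for 13 of the 16 the 95% interval lay within 1.5-fold either way. The gene with the largest difference was Slc25a20, which encodes the carnitine-acylcarnitine carrier of the inner membrane. It stood at 9.24, 9.10 and 9.07 in controls 1 to 3 and at 9.68, 9.71 and 9.87 in knockouts 1 to 3. All knockout arrays were above all controls, and knockout 3 was the highest. The difference of 0.62 ± 0.11 (SE), or 1.54-fold, missed the threshold (limma adjusted p = 0.0651, 95% interval 0.36 to 0.88). A second probe set of the gene went from 7.92, 8.11 and 8.26 in controls to 8.81, 8.89 and 8.62, a difference of 0.68 ± 0.13 (adjusted p = 0.0904). On the mean of both probe sets the difference was 0.65, and it passed (limma adjusted p = 0.0133). With the acinar covariate it was 0.51 ± 0.14 (adjusted p = 0.337). Cpt2, the inner membrane carnitine palmitoyltransferase that works beside this carrier, differed by 0.086 ± 0.13 (SE), and by -0.096 against control 1 alone.

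Upstream of Slc25a20 the bases at chr9:108661886-108662135 (plus strand, GRCm38.p6) read as follows. They are shown because this gene had the largest mitochondrial difference, and they too hold no AGGTCA on either strand, so no letter is in capitals.
Slc25a20: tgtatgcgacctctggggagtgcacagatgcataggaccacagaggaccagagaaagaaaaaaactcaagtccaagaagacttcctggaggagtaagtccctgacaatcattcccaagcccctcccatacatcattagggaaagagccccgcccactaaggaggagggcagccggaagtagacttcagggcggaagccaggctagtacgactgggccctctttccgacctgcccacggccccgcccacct
The full element bound by PPAR and RXR is a direct repeat of AGGTCA with 1 base of any kind between. It was searched on both strands, with up to 2 mismatches, in windows from 250 bases before to 50 bases after each start. A match was found in 3 of 39 windows of 33 matched genes (7.69%) and in 3.86% of all 32851 windows. The 3 matches are printed with the letters that fit in capitals. They lie 83 to 71 bases before the start of Echs1, 77 to 65 bases before that of Etfa (on the other strand), and at bases 7 to 19 of the Slc25a20 transcript.
Echs1: AGGTCAcgGGTCc
Etfa: AGGgCAaAGGTaA
Slc25a20: AGGTgAaAGGTCg
With no mismatch the repeat was in 0 of the 39 windows. AGGTCA alone was in 6 of the 39 (15.4%) and in 16.3% of all windows. It overlaps the repeat, and the Echs1 match counts under both. Of the 3 genes with a match to the repeat, Slc25a20 had the value given above, while Echs1 differed by -0.20 ± 0.19 and Etfa by -0.042 ± 0.10 (0.012 after median centring).

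The 4 acyl-CoA dehydrogenases, which make the first double bond in chains of decreasing length, all had groups that overlapped. Acadl had the smallest p among them, at 7.85, 7.82 and 7.77 in controls and 7.82, 8.15 and 8.16 in knockouts 1 to 3. Knockout 1 lay among the controls and the other two above them, and the difference was 0.23 ± 0.13 (SE, limma adjusted p = 0.514). Acadvl, the very-long-chain enzyme, differed by 0.17 ± 0.12. Acadm, the medium-chain enzyme, differed by 0.0059 ± 0.15, and by -0.22 with the acinar covariate. The short-chain enzyme gene Acads differed by -0.13 ± 0.14.

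For the hydratase, second dehydrogenase and thiolase steps, Hadha and Hadhb encode the subunits of the trifunctional protein. They differed by 0.057 ± 0.10 and 0.14 ± 0.11 (SE), with 95% intervals of -0.19 to 0.31 and -0.12 to 0.39. The 2 genes lie head to head, with 272 bases between their starts at chr5:30154981-30155252 (plus strand, GRCm38.p6), and this stretch is shown because it serves as the upstream region of both. It holds 1 match to TTCNNNGAA, a palindrome of the kind bound by STAT factors. Its fixed letters are in capitals. A match to it was in 3 of the 39 windows (7.69%) and in 8.30% of all windows, and since the Hadha and Hadhb windows overlap, both hold the same match.
Hadha-Hadhb: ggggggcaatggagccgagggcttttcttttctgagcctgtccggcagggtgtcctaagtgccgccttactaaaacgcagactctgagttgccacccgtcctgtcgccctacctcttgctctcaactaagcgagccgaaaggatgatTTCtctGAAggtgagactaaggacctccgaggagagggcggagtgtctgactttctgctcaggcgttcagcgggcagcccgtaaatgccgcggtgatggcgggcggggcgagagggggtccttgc
Hadh, the short-chain dehydrogenase whose loss is known to cause excess insulin release, was very bright in islets. It stood at 13.01, 12.82 and 13.07 in controls and 12.84, 13.00 and 13.18 in the arrays labelled knockout, a difference of 0.043 ± 0.13 that was -0.024 on the mean of its 3 probe sets. Near the top of the range of the arrays, differences can be compressed.

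Acaa2, the mitochondrial thiolase, had the smallest p of these 5 genes and the lowest difference of the 16. Its values were 8.37, 8.64 and 8.77 in controls and 8.33, 7.95 and 8.44 in knockouts 1 to 3, and the groups overlapped (difference -0.35 ± 0.17, SE, limma adjusted p = 0.459). A dimmer probe set was tighter. It read 7.07, 7.07 and 7.04 in controls and 6.58, 6.53 and 6.54 in the arrays labelled knockout, a difference of -0.51 ± 0.095 that also missed the threshold (limma adjusted p = 0.0740). Another probe set differed by 0.19 ± 0.22, less than its SE, so its direction is not settled.

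Enzymes for unsaturated chains and the electron carriers were close to level. Eci1, which moves double bonds, stood at 9.61, 9.33 and 9.57 in controls and 9.58, 9.60 and 9.69 in the arrays labelled knockout. Its difference was 0.12 ± 0.12 (SE), and control 2 alone stood below the rest. Decr1, the mitochondrial dienoyl-CoA reductase, differed by -0.082 ± 0.10 (0.096 on the mean of its probe sets). Etfdh, which hands the electrons of the dehydrogenases to ubiquinone, had values of 9.36, 9.44 and 9.11 against 9.58, 9.57 and 9.33, which overlap because knockout 3 lay below controls 1 and 2 (difference 0.19 ± 0.13). Etfb, a subunit of the flavoprotein that feeds it, differed by 0.0036 ± 0.11, and by -0.034 after quantile normalization.

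Set side by side, the peroxisomal enzymes had a median difference of 0.080 and the mitochondrial ones of 0.050. Without Ehhadh the peroxisomal median was 0.079. Higher means were seen for 8 of 8 peroxisomal and 11 of 16 mitochondrial genes, and for 9165 of all 18193 genes. With the acinar covariate the counts were 5 of 8, 9 of 16 and 8787 of all genes. After quantile normalization they were 7 of 8, 9 of 16 and 9254. Against control 1 alone they were 4 of 8, 8 of 16 and 8694. They were 8 of 8, 12 of 16 and 11121 after median centring. Without control 1 they were 8 of 8, 12 of 16 and 9571, so the counts over all genes moved as well. When Crat, Eci2 and Ech1 were counted as mitochondrial and Amacr as peroxisomal, the medians were 0.0059 and 0.082. The classes are described only, since the genes were listed with earlier results known.

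The 4 enzymes of both organelles did not pass, and their groups overlapped. Crat, the carnitine acetyltransferase, had the smallest p, at 6.83, 6.55 and 6.61 in controls and 6.47, 6.58 and 6.41 in the arrays labelled knockout. Its difference was -0.17 ± 0.12 (SE, limma adjusted p = 0.604), and 0.0077 on the mean of its 3 probe sets. Eci2, a second double-bond isomerase, differed by -0.14 ± 0.12, Ech1 by -0.029 ± 0.12 (0.024 after median centring) and Amacr, a racemase for branched chains, by 0.20 ± 0.14.

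**Figure D3:**
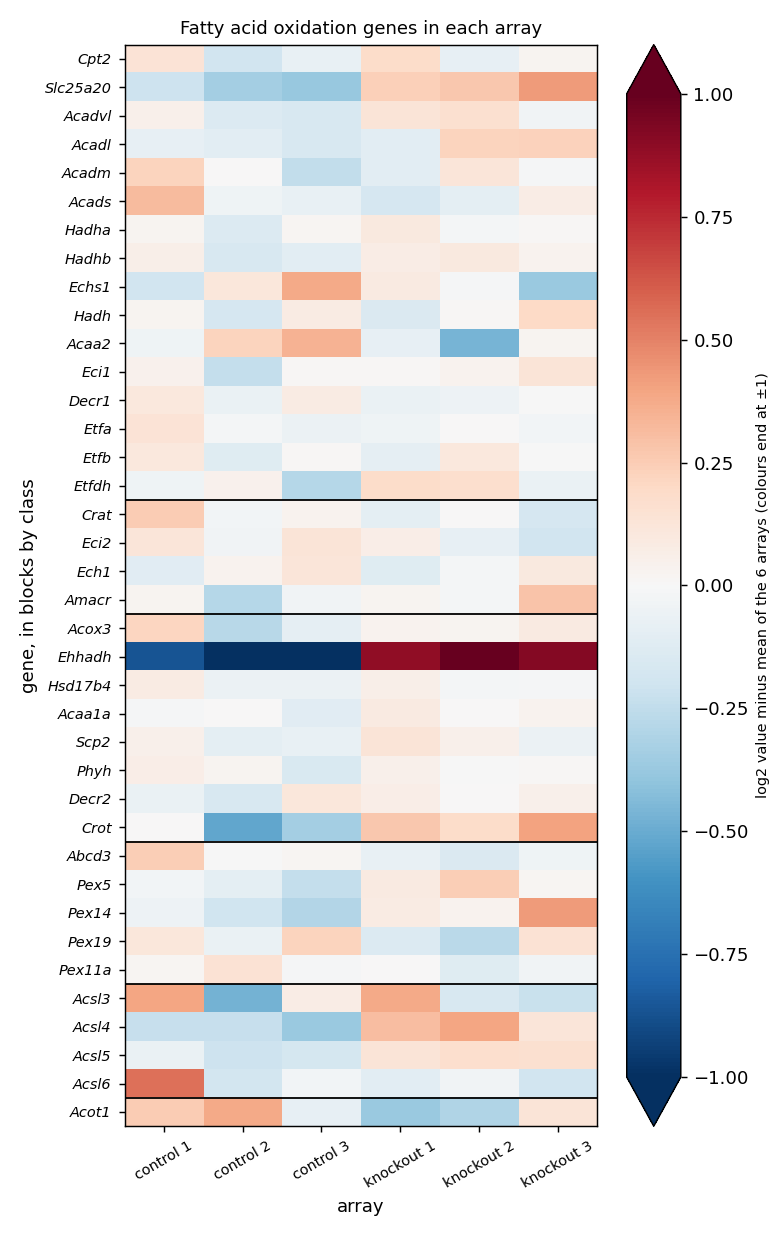
Each of the 38 genes (rows, in blocks by class) in each of the 6 arrays (columns), as the log2 value minus the mean of the 6 arrays. Ehhadh reaches both ends of the colour scale, and most other rows show differences between arrays of one group as large as those between the groups; control 1 is the highest control in 26 of the 38 rows.

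Controls varied among themselves in the same genes. Control 1, which had the least acinar RNA of the controls, was the highest of the 3 controls for 26 of the 38 genes and for 12 of the 16 mitochondrial ones. Control 2 was the lowest for 20 of the 38. Over all probe sets the array median was 5.41 in control 1, 5.49 in control 2 and 5.47 in control 3. The same counts over all genes are not given here, so these cannot be read as particular to the 38. The median distance of the 38 genes from their 6-array means was 0.048 in control 1, -0.10 in control 2 and -0.064 in control 3, and lay between 0.0042 and 0.056 in the arrays labelled knockout. Control 1 thus lay within the range of the arrays labelled knockout, and controls 2 and 3 below it. The part of acinar RNA in this was not tested. Against control 1 alone the median difference was 0.00065 for the mitochondrial and 0.018 for the peroxisomal enzymes.

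Peroxisome assembly and transport genes did not pass. Pex14, a docking protein of the import channel, had the smallest p of the 5, at 5.78, 5.63 and 5.54 in controls and 5.91, 5.87 and 6.26 in the arrays labelled knockout. The groups did not overlap, knockout 3 was the highest, and the difference was 0.36 ± 0.14 (SE, limma adjusted p = 0.356). Pex5, the receptor that carries enzymes to that channel, differed by 0.24 ± 0.12, also without overlap. Abcd3, a fatty acyl transporter of the peroxisomal membrane, ran the other way without overlap, at 11.70 to 11.94 in controls and 11.56 to 11.66 in the arrays labelled knockout (difference -0.18 ± 0.11). Pex19, which brings membrane proteins to the peroxisome, differed by -0.18 ± 0.15. Pex11a, a gene for peroxisome division, differed by -0.097 ± 0.10, and by 0.056 on the mean of its 2 probe sets.

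Among the acyl-CoA synthetases, which activate the fatty acid for any later use, Acsl4 had the smallest p. Acsl4 prefers arachidonic acid. It stood at 9.13, 9.13 and 8.99 in controls and 9.67, 9.76 and 9.48 in the arrays labelled knockout, with no overlap. The difference was 0.55 ± 0.12 (SE, limma adjusted p = 0.107, 95% interval 0.27 to 0.83). Its other 2 probe sets also did not overlap, with differences of 1.0 ± 0.18 and 0.50 ± 0.17, and on the mean of all 3 the difference of 0.68 passed (limma adjusted p = 0.0249). Acsl5 stood at 11.18 to 11.32 in controls and 11.52 to 11.56 in the arrays labelled knockout, a tight separation of 0.30 ± 0.10 (adjusted p = 0.277). Acsl3 varied widely within both groups (6.88 to 7.75 in controls and 7.13 to 7.73 in the arrays labelled knockout) and differed by -0.00083 ± 0.26, or 0.052 after median centring. Acsl6 differed by -0.22 ± 0.20, with control 1 well above the other 5 arrays.

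The thioesterase gene Acot1, whose product splits acyl-CoA back into fatty acid and coenzyme A in the cytosol, was dim, at percentile 37.5 of all probe sets in controls. It stood at 4.55, 4.68 and 4.22 in controls and 3.93, 4.0 and 4.43 in the arrays labelled knockout, which overlapped (difference -0.36 ± 0.18, SE, limma adjusted p = 0.472). Acot1 and its mitochondrial relative Acot2 are close in sequence, so their probe sets may share signal.

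**Figure D4:**
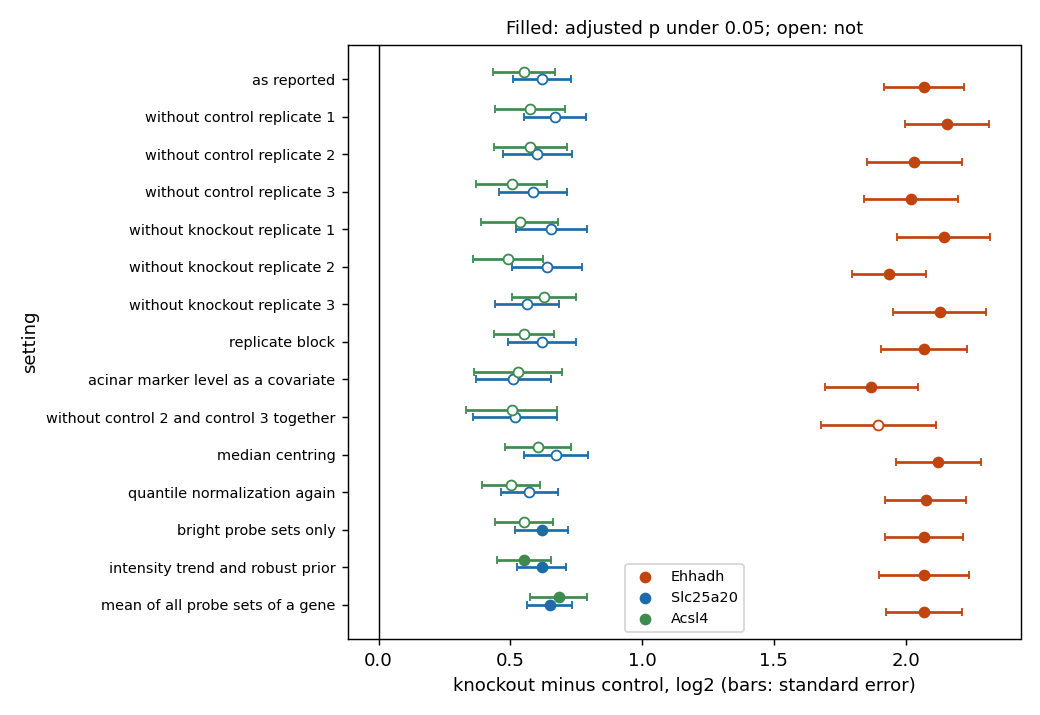
Difference between groups (log2, bars are standard errors) for Ehhadh, Slc25a20 and Acsl4 as reported and under each of 14 other settings; filled points passed adjusted p 0.05. Ehhadh stays between 1.87 and 2.16 and is open only against control 1 alone, while Slc25a20 and Acsl4 pass in 3 and 2 settings.

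The wider pathway was measured with 79 of 89 other listed genes of fatty acid uptake, mitochondrial use and peroxisomes. Of these, 0 rose, 0 fell and 79 did not pass (limma), 14 (17.7%) had an unadjusted p under 0.05 (8 higher and 6 lower), against 14.0% of all genes, and the median difference was 0.041. In 22 of the 79 (27.8%) the groups did not overlap, 14 of them higher, against 21.2% of all genes. The 4 with the smallest p split evenly in direction. Acsf2, a mitochondrial medium-chain acyl-CoA synthetase, stood at 6.41, 6.05 and 5.88 in controls and 7.20, 7.0 and 7.01 in the arrays labelled knockout (difference 0.96 ± 0.16, SE, limma adjusted p = 0.0550). Fabp4, the adipocyte and macrophage fatty acid-binding protein, stood at 10.02, 10.17 and 9.78 against 11.11, 10.71 and 11.13 (0.99 ± 0.17, adjusted p = 0.0550). The groups were separate in both. Among adipocyte markers, Adipoq was near the bottom of the range, between 2.0 and 2.42 in all arrays. The mean of 5 of 7 markers measured was 4.19 to 4.58 in controls and 3.97 to 4.33 in the arrays labelled knockout. Of these 5, 3 had lower means and 2 had higher means. For 6 endothelial markers the mean was 7.32 to 8.09 in controls and 7.78 to 7.89 in the arrays labelled knockout. All 6 had higher means, though the ranges overlapped. The part of the endothelial markers and of the higher immune cell markers, given above, in the Fabp4 difference was not tested.

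Running lower were Acot2, the mitochondrial thioesterase, and Fabp3, the muscle-type fatty acid-binding protein. Acot2 stood at 9.58, 9.34 and 9.27 in controls and 8.70, 8.53 and 8.75 in the arrays labelled knockout (difference -0.74 ± 0.13, SE, limma adjusted p = 0.0606). Fabp3 stood at 7.32, 7.75 and 7.24 against 6.63, 6.54 and 6.42 (-0.91 ± 0.16, adjusted p = 0.0614). Both were separate between groups on these probe sets, while their dimmer probe sets differed by -0.22 and 0.14. Chosen after their values were seen, Cpt1a, the outer membrane carnitine palmitoyltransferase that sets the rate of entry into mitochondria, differed by 0.28 ± 0.12 (adjusted p = 0.397). Dimmer probe sets of Cpt1a differed by 0.45 ± 0.18 and 0.49 ± 0.17 (SE, limma adjusted p = 0.375 and 0.310). Pdk4, whose product blocks pyruvate oxidation, stood at 8.63 to 8.74 in controls and at 7.93, 7.48 and 8.88 in knockouts 1 to 3. Thus 1 of the 3 lay above the controls (difference -0.60 ± 0.33). A dimmer probe set of Ivd, which oxidizes the leucine product isovaleryl-CoA, rose by 1.17 ± 0.17 (adjusted p = 0.0368), and its brighter one differed by 1.41 ± 0.27 without passing (adjusted p = 0.0769). The receptor genes Ppara and Pparg differed by -0.28 ± 0.14 and -0.043 ± 0.097 (0.010 for Pparg after median centring), and neither passed.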

How the data were processed

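The authors deposited 1 table of log2 expression values, 1 column per array. Per the submitters' processing notes it was made with RMA (no version given), which corrects background, normalizes quantiles and summarises probe sets. Other steps are not given in the sources used here. Of 45101 probe sets, 64 manufacturer controls were left out. Of the 45037 tested, 34945 had 1 symbol in the platform annotation, 932 had several and 9160 had no listed name; 34741 matched the RefSeq table of GRCm38.p6 by gene identifier. The test was limma's (version 3.58.1, under R 4.3.3), two-sided, with eBayes and group as the only term, with Benjamini-Hochberg adjustment over all 45037 probe sets. Scanner files were not used, so there were no detection calls. With 3 arrays a group, the number of arrays limits the precision.

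All 39 genes are accounted for. Values in every array are given for genes past adjusted p 0.05, for those whose groups do not overlap with a difference of at least 0.5, for the gene with the smallest p of each role, and for the 4 other pathway genes with the smallest p; values of further genes were added after they were seen. Genes, lists and tests were chosen with earlier results of these data known. Alternatives left out single arrays, controls 2 and 3, or dim probe sets, or added the replicate number or the acinar level, rescaled the arrays, changed the variance prior or averaged probe sets.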

Additional observations from a re-analysis of the deposited data

How the results depend on the processing

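The count of called genes among the 38 was 1 in every fit that left out 1 array (1 to 1). It was 0 against control 1 alone, 2 with bright probe sets only (Ehhadh and Slc25a20, with fewer probe sets tested), 3 on the mean of all probe sets of a gene and 4 with an intensity trend and robust prior (Acsl5 as well). Among the other pathway genes the count was 0 to 1 with 1 array left out. The calls were Acsf2 without control 1 and Ivd without knockout 3. The count was 1 after median centring and 2 after quantile normalization. It was 6 with bright probe sets only, 6 with the trend and robust prior and 4 on gene means. The fit on bright probe sets tested 37 of the 38 genes and 65 of the 79 others, among 22518 probe sets. Counts over all features are not given here for bright probe sets, gene means, median centring or quantile normalization, so those counts have no background share. Over all probe sets, 404 calls became 246 with the replicate block, 136 with the acinar covariate, 54 against control 1 alone and 903 with the trend and robust prior. Single arrays moved that count from 152 (without control 3) to 783 (without control 1), and leaving out control 2 gave 239, knockouts 1 and 2 gave 161 each and knockout 3 gave 209. Same-numbered arrays deviated from their group means with correlations of -0.054, 0.14 and 0.0045, and differently numbered ones with -0.13 to 0.10. With 3 arrays a group, these values cannot show whether same-numbered arrays shared more than a number. The block kept 1 call among the 38 and 0 among the other pathway genes. The peroxisomal minus mitochondrial median of 0.030 was 0.076 with the genes of both organelles included, and -0.0040 to 0.048 with 1 array left out; the cause was not tested.

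Of 531 gene values under these alternatives 47 changed sign, in 15 genes whose reported differences were at most 0.201 in size. Against control 1 alone these were Cpt2 (-0.096), Acadm (-0.22), Echs1 (0.094), Hadh (-0.0024), Etfb (-0.10), Ech1 (0.098), Acox3 (-0.17), Hsd17b4 (-0.073), Scp2 (-0.014) and Phyh (-0.042). With the acinar covariate they were Acadm (-0.22), Echs1 (0.10), Hadh (-0.063), Etfb (-0.12), Ech1 (0.018), Acox3 (-0.099), Hsd17b4 (-0.025) and Phyh (-0.0078). After quantile normalization they were Acadm (-0.0068), Etfb (-0.034) and Hsd17b4 (-0.015), and after median centring Etfa (0.012), Ech1 (0.024), Acsl3 (0.052) and, outside the set, Pparg (0.010). On gene means they were Hadh (-0.024), Decr1 (0.096), Crat (0.0077), Acox3 (-0.038), Pex11a (0.056) and Acsl3 (0.24). With 1 array left out the ranges that crossed 0 were those of Acadm (-0.11 to 0.12), Hadh (-0.045 to 0.13), Etfa (-0.080 to 0.017), Etfb (-0.057 to 0.057), Ech1 (-0.093 to 0.026), Acox3 (-0.011 to 0.24), Hsd17b4 (-0.0024 to 0.070), Phyh (-0.023 to 0.082) and Acsl3 (-0.24 to 0.20).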
